A study of Mus musculus with 6 samples.

Results

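A set of 38 genes of autophagy and of the lysosome, listed by symbol, was followed in newborn mouse muscle with and without Klhl40. Of the 38 genes, 35 had at least 1 annotated probe on the array and 30 could be tested, out of 13455 genes tested in all. Each gene was read from its probe with the highest mean signal. The tissue was quadriceps, a thigh muscle, taken at 0 days of age from 3 Klhl40 knockout mice (KO) and 3 wild-type mice (WT), all of the strain C57BL/6. Each KO mouse was killed together with a WT littermate, and the age was chosen to limit the effect of poor feeding on gene expression. RNA of each mouse was hybridised to 1 Illumina bead array. Each level below is a log2 normalised intensity. Each difference is the KO mean minus the WT mean, so a positive one means a higher level in KO. Whole muscle was measured, so fewer cells of a type and less RNA per cell cannot be told apart.

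Autophagy delivers cell contents to the lysosome for breakdown. A kinase complex around Ulk1 starts the process, a lipid kinase complex around Pik3c3 and Becn1 marks the growing membrane, and a pair of conjugation systems attaches proteins of the Atg8 family to it. Receptors such as Sqstm1 bind both the cargo and the Atg8 proteins, and the closed autophagosome then fuses with a lysosome that holds proteases of the cathepsin family. In skeletal muscle the pathway removes damaged mitochondria and misfolded sarcomere proteins and is induced around birth and on fasting, and the transcription factor Tfeb drives many of its lysosomal genes. Klhl40 is a muscle-specific kelch protein whose human counterpart is mutated in nemaline myopathy. The arrays measured transcripts, and neither protein nor the turnover of autophagosomes was measured.

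The arrays carried the genotype on their labels: Klhl40 averaged 4.99 ± 0.66 in KO and 10.72 ± 0.08 in WT (SD, n = 3 each), a difference of -5.73 (limma adjusted p = 0.00115). Its probe was detected on 1 of 3 KO arrays and 3 of 3 WT arrays, so the KO level lay near background, at a scanner intensity of 121.6 ± 15.7 against 1786 ± 129 in WT (SD, n = 3 each). Between 18373 and 19189 of 45281 probes were detected per array. Of 12 skeletal muscle fibre markers 11 were measured, with differences of -0.14 to 0.25. Among these, Myh8 had the same normalised value on all 6 arrays and Tnnc2 the same 3 values in both groups, so these bright probes say nothing of fibre content. The array WT 3 stood apart from the other 5, at 32.4 on the first principal component (44.2% of the variance) against -14.6 to 8.29 on the others. The median deviation of 7 adipocyte markers from their means over all arrays was 1.82 on WT 3 and -0.85 to 0.02 on the other 5 arrays. Leaving out any 1 array in turn kept the sign of the difference for 16 of the 30 tested genes and turned it for 14: Ulk2, Atg13, Becn1, Uvrag, Atg9a, Wipi1, Atg3, Atg5, Atg12, Gabarap, Rab7, Vps11, Ctsd and Mcoln1.

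No autophagy or lysosome gene passed the test across all genes. By limma, 0 of the 30 rose and 0 fell at an adjusted p under 0.05, where 0.111% of all genes rose and 0.0372% fell. Their adjusted p-values lay between 0.591 and 0.993. At an unadjusted p under 0.05 limma had 1 of the 30 higher in KO, Map1lc3a, and 1 lower, Lamp1. The background was 3.89% of all genes higher and 3.38% lower (7.28% in all), close to the 3.33% of the 30 found in each direction. Arrays with the same replicate number were taken as littermates, which is not proven. With these pairs as a block, 5 of the 30 had an unadjusted limma p under 0.05, against 11.0% of all genes. Map1lc3a, Map1lc3b, Gabarapl1 and Sqstm1 were higher in KO (background 5.66%) and Atg7 lower (background 5.3%). Without background correction, and on the authors' deposited table, 6 had an unadjusted p under 0.05 (backgrounds 7.86% and 7.85%): Map1lc3a, Gabarapl1 and Sqstm1 higher, and Fundc1, Lamp1 and Ctsb lower. The differences were nearly the same in both of these settings, so the deposited table is not separate support. Without WT 3 there were 3 (background 8.91%), Map1lc3a higher and Atg7 and Lamp1 lower. With the block 0 of the 30 had an adjusted p under 0.05, against 0.193% of all genes.

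The differences of the 30 genes were small. With all arrays they ran from -0.35 for Atg7 to 0.28 for Map1lc3b, with 18 positive and 12 negative. Of all genes, 49.4% had a positive difference. The median difference was 0.032, and over all 13455 genes it was -0.0022. The median size of the difference, regardless of sign, was 0.081 over the 30 genes and 0.10 over all genes. The standard error of a difference was 0.11 at the median, and the 95% interval of 26 of the 30 genes lay within 1.5-fold in either direction. All 30 intervals lay within 2-fold in either direction. The 4 genes with an interval reaching past 1.5-fold were Atg7, Map1lc3b, Ctsd and Mcoln1.

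**Figure D1:**
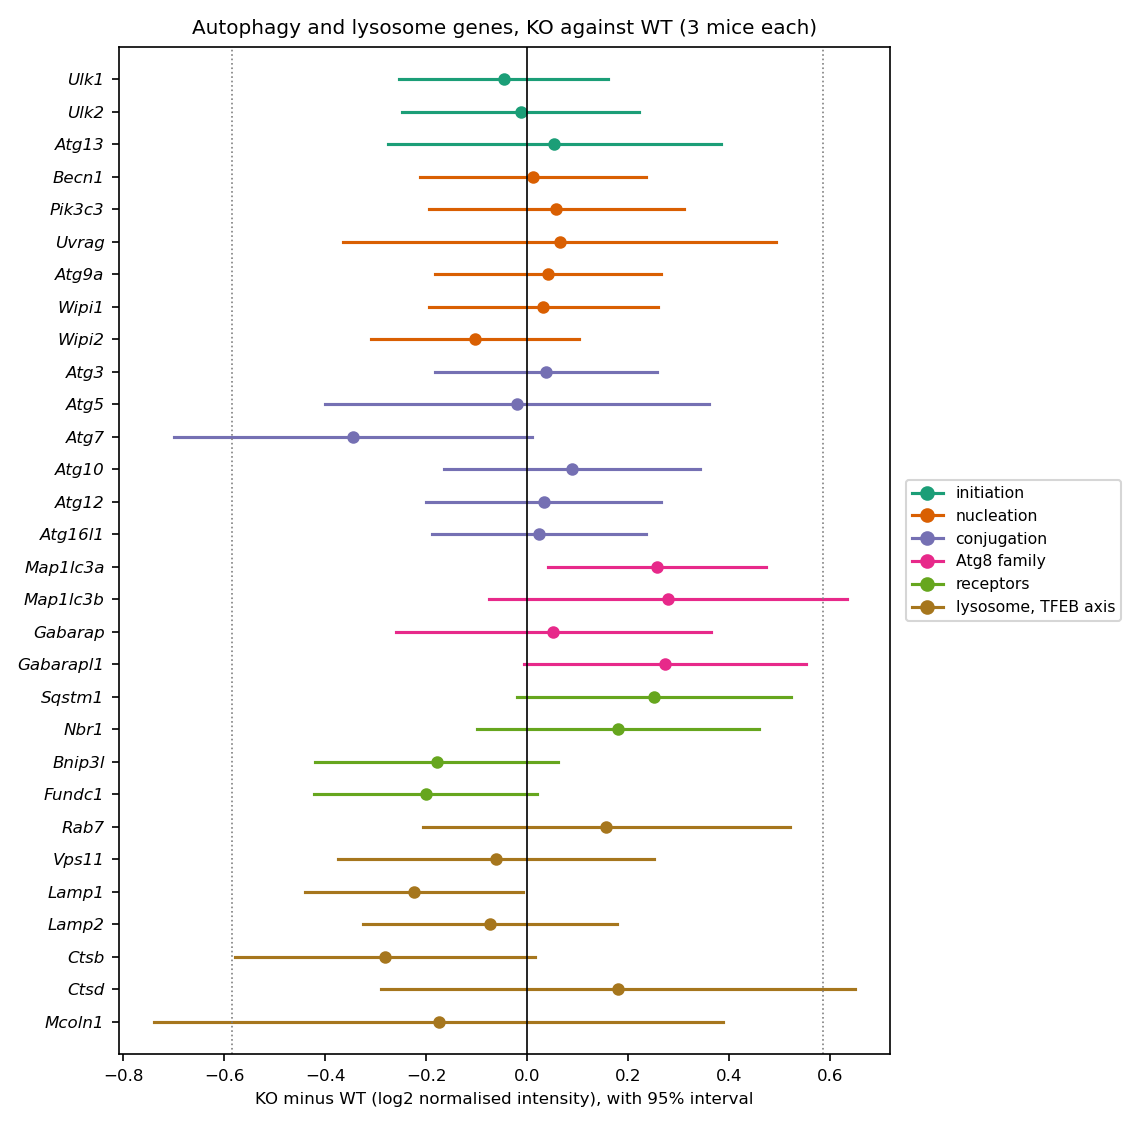
KO minus WT in log2 normalised intensity (x axis) for the 30 tested autophagy and lysosome genes (y axis, coloured by role), with points for the difference and bars for its 95% interval from limma (3 KO and 3 WT mice). Dotted lines mark 1.5-fold in either direction, and the intervals of 26 genes lie between them. Those of Map1lc3a and Lamp1 do not include 0 before adjustment for the number of genes.

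The genes of the complex that starts autophagy had differences of -0.05 to 0.05. Ulk1, the kinase at the head of the pathway, had 8.05, 8.02 and 8.12 in KO 1 to 3, against 8.08, 8.12 and 8.13 in WT 1 to 3. The KO and WT values overlapped, and the difference was -0.05 (SE 0.09, 95% interval -0.25 to 0.16, limma adjusted p = 0.960). Its relative Ulk2 had a difference of -0.01 and Atg13, a scaffold of the kinase complex, one of 0.05. Without WT 3 the difference of Atg13 was -0.07.

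Genes of membrane nucleation had differences of -0.10 to 0.06, and several depended on single arrays. Becn1, the regulatory subunit of the lipid kinase complex, had 7.07, 6.93 and 7.00 in KO 1 to 3, against 6.99, 7.07 and 6.92 in WT 1 to 3. These values overlapped, with a difference of 0.01 (SE 0.10, 95% interval -0.21 to 0.23, limma adjusted p = 0.993). The catalytic subunit Pik3c3 had a difference of 0.06, and 0.01 to 0.14 without 1 array in turn. Uvrag, a partner of Becn1, also had 0.06, but 0.25 without KO 3 and -0.05 without WT 3. The lipid scramblase Atg9a had 0.04 and the phosphoinositide-binding Wipi1 0.03. Uvrag was lower on both arrays with the number 3, at 8.74 on KO 3 and 8.83 on WT 3, than on the other 4 arrays, at 9.08 to 9.32. Wipi2, which recruits the conjugation machinery to the membrane, had 7.91, 7.90 and 7.92 in KO 1 to 3, against 8.05, 8.03 and 7.95 in WT 1 to 3. Every KO value lay below every WT value, at a difference of -0.10 (SE 0.09, 95% interval -0.31 to 0.10, limma adjusted p = 0.898). Its further probes, at 0.02 and 0.10, pointed the other way. Atg14, the subunit that directs the lipid kinase to autophagy, had no probe in the annotation used and was not analysed here.

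Among the conjugation enzymes 1 gene stood out from the rest in size. Atg7, the activating enzyme of both conjugation systems, had 5.43, 5.58 and 5.15 in KO 1 to 3, against 5.93, 5.75 and 5.52 in WT 1 to 3. KO 2 lay above WT 3 but below WT 2, and all 3 same-numbered pairs had the lower value in KO, by 0.50, 0.17 and 0.37. The difference was -0.35 (SE 0.15, 95% interval -0.70 to 0.01, limma adjusted p = 0.700). Atg7 was dim, at a scanner intensity of 131.2 ± 4.10 in KO and 143.8 ± 5.29 in WT (SD, n = 3 each), and the median of all probes was 111 to 113. Without background correction it was -0.12, and those of Ctsb, Lamp1, Fundc1 and Bnip3l were more negative. The conjugating enzymes Atg3 and Atg10 had differences of 0.04 and 0.09. A second, dimmer Atg10 probe, detected on all 6 arrays, pointed the other way at -0.13, and the mean of both probes gave -0.02. Atg5, Atg12 and Atg16l1, which form the complex that attaches Atg8 proteins to lipid, had -0.02, 0.03 and 0.02 with all arrays. Single arrays moved them: Atg5 had 0.13 without WT 3 and -0.12 without KO 3, and Atg12 had 0.08 without WT 3. Atg5 was highest on the 2 arrays with the number 3, at 8.29 on KO 3 and 8.42 on WT 3. The protease Atg4b, which trims Atg8 proteins, was detected on 1 of 3 KO arrays and 0 of 3 WT arrays, at intensities of 111.3 to 119.8 in KO and 105.5 to 115.9 in WT. It was not well above background and was not tested.

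The Atg8 family, the ubiquitin-like proteins that coat the autophagosome, had a positive difference for all 4 measured members with all arrays (median 0.26), and for Map1lc3a, Map1lc3b and Gabarapl1 without any 1 array. Map1lc3a had 9.11, 9.06 and 9.22 in KO 1 to 3, against 8.89, 8.87 and 8.87 in WT 1 to 3. The 3 WT arrays were nearly alike and every KO value lay above them, at 1.19-fold (difference 0.26, SE 0.09, 95% interval 0.04 to 0.47, limma adjusted p = 0.591). A second, dimmer Map1lc3a probe had 7.13, 7.24 and 7.41 in KO 1 to 3, against 6.80, 6.91 and 7.01 in WT 1 to 3, also without overlap (difference 0.35). Leaving out any 1 array gave 0.21 to 0.29 for the brighter probe.

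Gabarapl1 had 8.52, 8.57 and 8.50 in KO 1 to 3, against 8.30, 8.43 and 8.04 in WT 1 to 3. The groups did not overlap, with WT 3 the lowest array (difference 0.27, SE 0.12, 95% interval -0.01 to 0.55, limma adjusted p = 0.698). Without WT 3 the difference was 0.17. Map1lc3b, the family member most used as a marker of autophagosomes, had 7.61, 7.55 and 7.40 in KO 1 to 3, against 7.54, 7.21 and 6.98 in WT 1 to 3. WT 1 lay within the KO values and WT 3 was again the lowest, at a difference of 0.28 (SE 0.15, 95% interval -0.08 to 0.63, limma adjusted p = 0.795) and 0.15 without WT 3. Gabarap, the founding member of its branch of the family, had 11.06, 10.99 and 11.10 in KO and 10.84, 10.89 and 11.27 in WT, with WT 3 the highest array. Its difference was 0.05 with all arrays, 0.19 without WT 3, -0.03 without WT 1 and -0.0053 without WT 2. Gabarapl2 was above background on only 1 KO and 1 WT array and was not tested. On the KO arrays the median of the 4 genes' deviations from each gene's mean over all arrays was 0.09 to 0.11, and on the WT arrays -0.245 to -0.10. Without WT 3 the median difference of the 4 genes was 0.18.

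**Figure D2:**
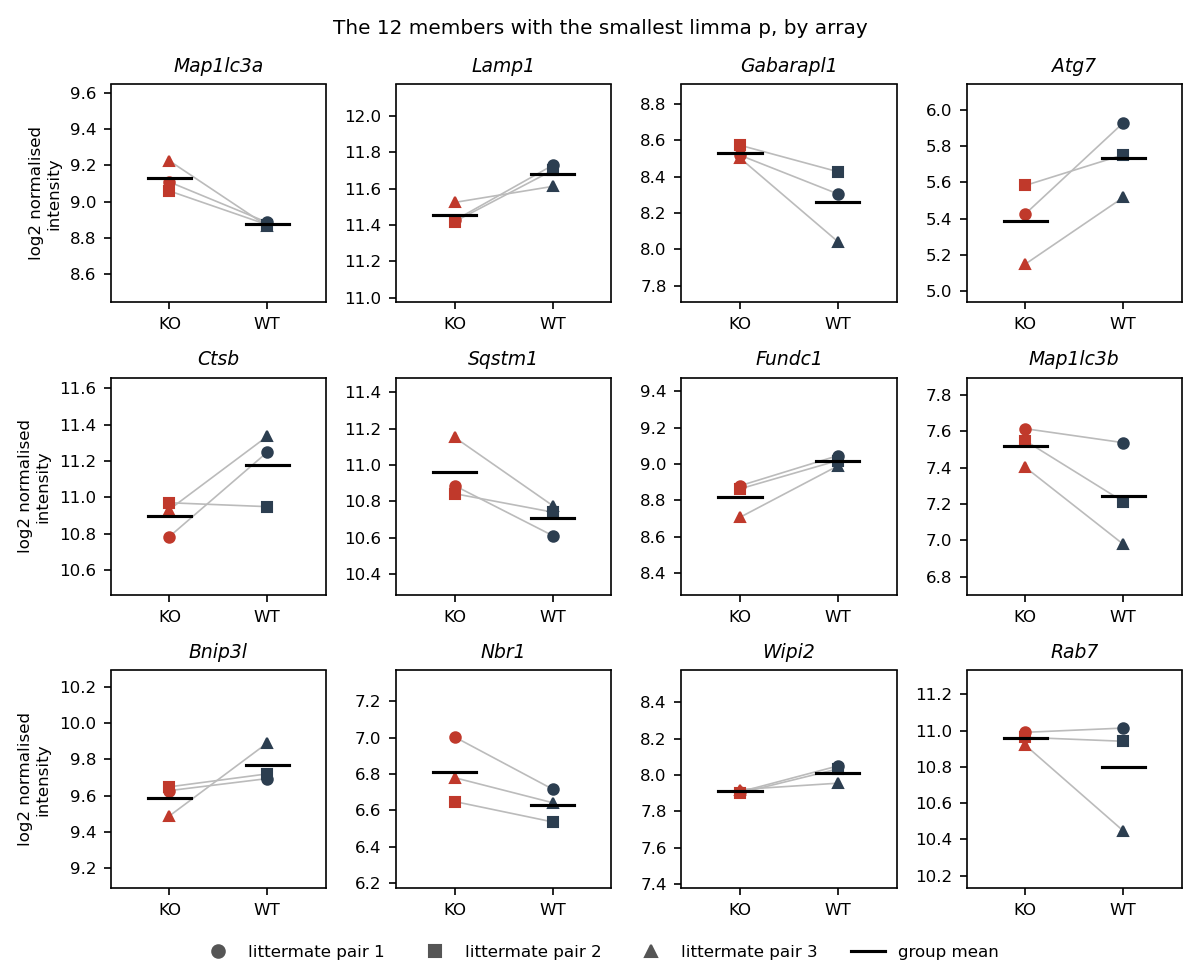
Log2 normalised intensity (y axis, each panel spanning 1.2 units) on the KO arrays (left in each panel) and WT arrays (right) for the 12 genes with the smallest limma p. Symbols mark the replicate number, grey lines join arrays of the same number, and black bars are group means. Same-numbered arrays were taken as littermate pairs, which is not proven. The 2 genotypes are fully separated for Map1lc3a, Lamp1, Gabarapl1, Sqstm1, Fundc1, Bnip3l and Wipi2, and WT 3 lies far below the other arrays for Rab7.

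The cargo receptors split by sign. Sqstm1, which links ubiquitin-tagged cargo to Atg8 proteins, had 10.89, 10.84 and 11.15 in KO 1 to 3, against 10.61, 10.74 and 10.78 in WT 1 to 3. Every KO value lay above every WT value, with KO 3 the highest (difference 0.25, SE 0.12, 95% interval -0.02 to 0.52, limma adjusted p = 0.717). Without KO 3 the difference was 0.15. Nbr1, a related receptor that also binds the kinase domain of titin, had 7.00, 6.65 and 6.78 in KO 1 to 3, against 6.72, 6.54 and 6.64 in WT 1 to 3. The KO array lay above the same-numbered WT array in all 3 pairs, although KO 2 lay below WT 1 (difference 0.18, SE 0.12, 95% interval -0.10 to 0.46, limma adjusted p = 0.843). The difference was 0.08 without KO 1 and 0.10 without background correction, and a second Nbr1 probe gave 0.03.

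Both measured mitochondrial receptors lay lower in KO. Fundc1, a receptor of the outer mitochondrial membrane, had 8.88, 8.86 and 8.71 in KO 1 to 3, against 9.05, 9.02 and 8.99 in WT 1 to 3, with no overlap. The difference was -0.20 (SE 0.10, 95% interval -0.42 to 0.02, limma adjusted p = 0.724), and a second Fundc1 probe with overlapping groups gave -0.02. Bnip3l, which removes mitochondria from maturing red cells as well as from muscle, had 9.63, 9.65 and 9.49 in KO 1 to 3, against 9.69, 9.72 and 9.89 in WT 1 to 3. The groups did not overlap, with WT 3 the highest array (difference -0.18, SE 0.10, 95% interval -0.42 to 0.06, limma adjusted p = 0.808), and the difference was -0.12 without WT 3. Of 12 erythroid markers 5 were measured, 4 with a negative difference (median -0.07), and their summed normalised intensity was 39309 to 57109 in KO and 46751 to 56649 in WT. The part of red cells in the Bnip3l difference was not tested. The probe for Bnip3, the paralogue of Bnip3l that is induced by fasting and hypoxia, passed detection on 0 of 6 arrays, at intensities of 103.8 to 108.6 in KO and 103.3 to 104.5 in WT. No level can be given for it. Optn and Pink1, a ubiquitin-binding receptor and the kinase that marks damaged mitochondria, had no probe in the annotation used and were not analysed here.

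Of the 7 measured genes of the late endosome and lysosome, 5 had a negative difference (median -0.07). Lamp1, an abundant glycoprotein of the lysosomal membrane, had 11.43, 11.42 and 11.53 in KO 1 to 3, against 11.73, 11.70 and 11.61 in WT 1 to 3. Every KO value lay below every WT value, at 0.856-fold (difference -0.22, SE 0.09, 95% interval -0.44 to -0.01, limma adjusted p = 0.663). Leaving out any 1 array gave -0.26 to -0.20. Lamp2, the related glycoprotein that is lost in human Danon disease, had 11.35, 11.23 and 11.08 in KO 1 to 3, against 11.25, 11.25 and 11.38 in WT 1 to 3. These groups overlapped, at a difference of -0.07 (SE 0.11, 95% interval -0.32 to 0.18, limma adjusted p = 0.944). Without WT 3 it was -0.03. The 5 further detected Lamp2 probes gave -0.16 to 0.08.

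Among the proteases, Ctsb (cathepsin B) had 10.78, 10.97 and 10.93 in KO 1 to 3, against 11.25, 10.95 and 11.34 in WT 1 to 3. WT 2 lay within the KO values and the other WT arrays above them (difference -0.28, SE 0.13, 95% interval -0.58 to 0.015, limma adjusted p = 0.708). Without WT 3 the difference was -0.20. Ctsd (cathepsin D) lay near background, with 4.83, 5.03 and 5.60 in KO and 4.80, 5.15 and 4.98 in WT, and its difference of 0.18 turned to -0.04 without KO 3. Ctsl (cathepsin L) was detected on 0 of 3 KO arrays and 1 of 3 WT arrays, at scanner intensities of 110.5, 114.2 and 110.7 in KO 1 to 3 and 115.0, 122.1 and 113.2 in WT 1 to 3. It was not well above background and was not tested. Cathepsins are abundant in macrophages, and all 12 measured macrophage markers of 14 listed had a negative difference (median -0.14, and -0.03 without WT 3). Their summed normalised intensity was 2963 to 3640 in KO and 3344 to 4062 in WT. Fibroblast and matrix markers were lower for 8 of 10 measured (median -0.09 with and without WT 3), with summed intensities of 21379 to 22601 in KO and 22339 to 25165 in WT. Endothelial markers were lower for 10 of 10 (median -0.08, and 0.0080 without WT 3), with sums of 6333 to 7384 in KO and 6998 to 9060 in WT. Adipocyte markers were lower for 7 of 7 (median -0.59, and -0.02 without WT 3), with sums of 2992 to 3822 in KO and 3198 to 10291 in WT. The part of these cells in the differences of Lamp1, Ctsb and the hydrolases described further on was not tested.

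Rab7, the small GTPase of late endosomes, had 10.99, 10.96 and 10.92 in KO 1 to 3, against 11.01, 10.94 and 10.45 in WT 1 to 3. For this brightest probe the difference of 0.16 (SE 0.16, 95% interval -0.21 to 0.52, limma adjusted p = 0.915) was -0.02 without WT 3, the lowest array. The further Rab7 probes are described below. Vps11, a subunit of the complexes that tether endosomes to lysosomes, had a difference of -0.06, and -0.17 without WT 3. Mcoln1, a calcium channel of the lysosomal membrane, was dim and variable, at 4.87, 5.84 and 5.54 in KO and 5.37, 5.62 and 5.78 in WT. Its difference of -0.18 was 0.10 without KO 1, -0.39 without KO 2 and -0.08 without WT 3. The probe for Tfeb gave intensities of 114.4, 112.5 and 118.9 in KO 1 to 3 and 113.3, 112.9 and 117.8 in WT 1 to 3. It was detected on 1 of 3 KO arrays and 0 of 3 WT arrays, so that Tfeb could not be tested. A second Tfeb probe was detected on none of the 6 arrays.

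The letters CACGTG are the core of the element that Tfeb binds in lysosomal promoters, and they were looked up in the 250 bases before each gene's start (RefSeq, build GRCm38.p6). The letters are the same on both strands, and the longer form TCACGTGA contains them. Of the 38 genes, 30 had a promoter in the table, and 8 of these 30 (26.7%) held CACGTG, against 6.86% of all 27025 genes there. The 8 were Atg3, Atg5, Atg7, Bnip3, Ctsd, Ctsl, Lamp1 and Mcoln1, and 3 of them, Atg3, Ctsd and Mcoln1, held TCACGTGA, against 0.907% of all genes. Not in the table were Pik3c3, Bnip3l, Vps11, Map1lc3a, Becn1, Atg12, Ctsb and Atg16l1. The 30 were listed as autophagy and lysosome genes, and the 27025 include many genes not tested on the arrays. The shares are therefore not a comparison of like with like. A match in letters is a description and does not show binding. The 4 windows of 60 bases below show how the letters, in capitals, are arranged in a conjugation gene and in lysosomal genes with a difference on either side of 0. They lie at chr8:13159096-13159155 on the plus strand for Lamp1, chr8:3500434-3500493 on the plus strand for Mcoln1, chr7:142387893-142387952 on the minus strand for Ctsd and chr16:45158719-45158778 on the plus strand for Atg3.
Lamp1: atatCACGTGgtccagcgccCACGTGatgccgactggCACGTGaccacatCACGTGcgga
Mcoln1: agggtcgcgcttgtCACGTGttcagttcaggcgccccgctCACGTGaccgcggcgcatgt
Ctsd: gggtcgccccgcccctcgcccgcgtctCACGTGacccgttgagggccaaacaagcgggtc
Atg3: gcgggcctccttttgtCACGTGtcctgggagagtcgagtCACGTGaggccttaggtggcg
Lamp1 carried 4 copies between 61 and 10 bases before its start, Mcoln1 and Atg3 carried 2 copies each in these windows, and Ctsd carried 1. The Ctsd promoter held a further copy outside its window, 245 to 240 bases before the start. The 6 tested genes among the 8 with CACGTG had differences of 0.04 for Atg3, -0.02 for Atg5, -0.35 for Atg7, 0.18 for Ctsd, -0.22 for Lamp1 and -0.18 for Mcoln1, of which those of Atg7 and Lamp1 kept their sign without any 1 array. With all arrays, genes that share these letters lay on both sides of 0.

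**Figure D3:**
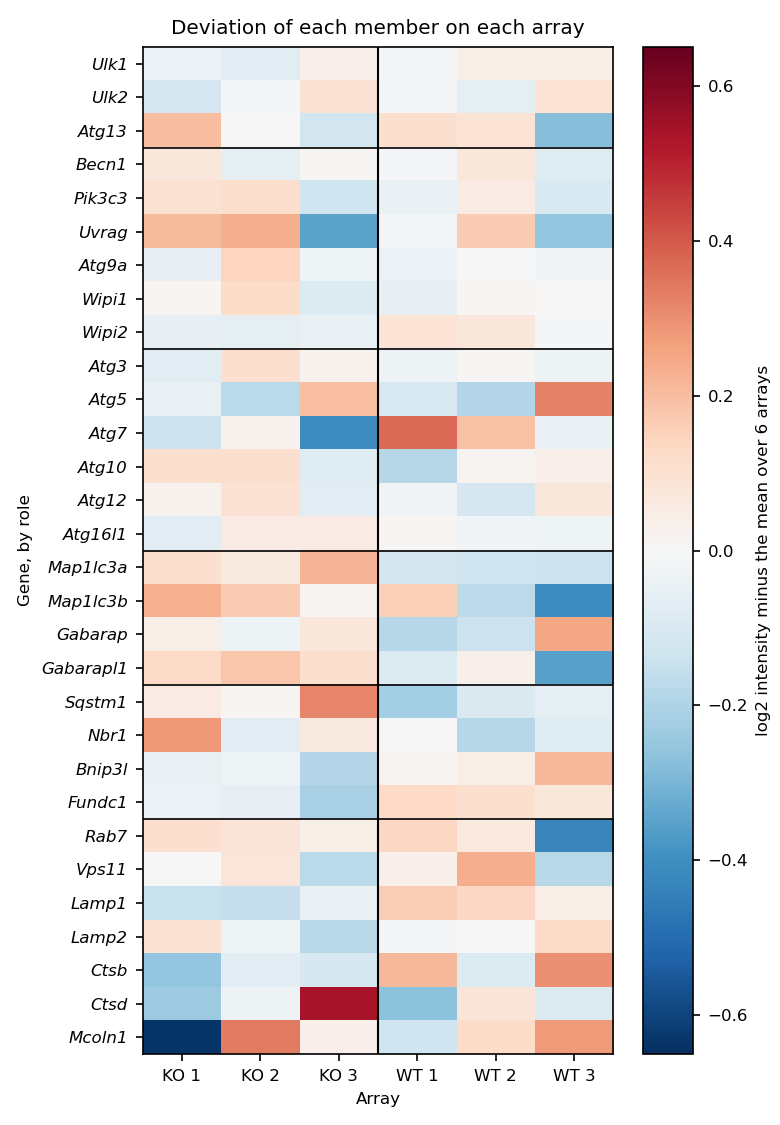
Deviation of each of the 30 tested genes (y axis, ordered by role with lines between roles) from its mean over the 6 arrays, in log2 units, on KO 1 to 3 (left of the black line) and WT 1 to 3 (right). Map1lc3a, Map1lc3b, Gabarapl1, Sqstm1 and Rab7 are above their mean on all KO arrays, and Lamp1, Wipi2, Fundc1, Bnip3l and Ctsb below it. The widest single deviations are those of Mcoln1 and Ctsd, which lie near background.

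Non-overlap between the groups was counted over the 30 genes. KO lay above WT for 3 of them (10.0%), Map1lc3a, Gabarapl1 and Sqstm1, where 6.93% of all genes did so. KO lay below WT for 4 (13.3%), Wipi2, Bnip3l, Fundc1 and Lamp1, where 6.42% of all genes did so. Within the same-numbered pairs, taken as littermates, 5 genes (16.7%) were higher in KO in all 3 pairs, against 17.2% of all genes. These were the 3 above with Map1lc3b and Nbr1. A further 6 (20.0%) were lower in all 3, against 16.6% of all genes, namely Ulk1, Wipi2, Atg7, Bnip3l, Fundc1 and Lamp1.

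Probes of the same gene gave a measure of how far such differences can be read. Of the 30 genes, 13 had more than 1 detected probe, with 22 further probes, of which 13 had the sign of the brightest. Both Map1lc3a probes were positive, at 0.26 and 0.35. For Wipi1 the brightest probe gave 0.03, whereas the dimmest of its 3 detected probes had 6.81, 6.85 and 7.03 in KO 1 to 3 and 6.35, 6.52 and 6.54 in WT 1 to 3 (difference 0.43). These groups did not overlap. For Rab7 the probes gave 0.16, 0.37, 0.49 and -0.06 from brightest to dimmest, and without WT 3 the probes that gave 0.37 and 0.49 gave 0.23 and 0.26. Of these Rab7 probes only the one that gave 0.37 had every KO value above every WT value, and the others overlapped.

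**Figure D4:**
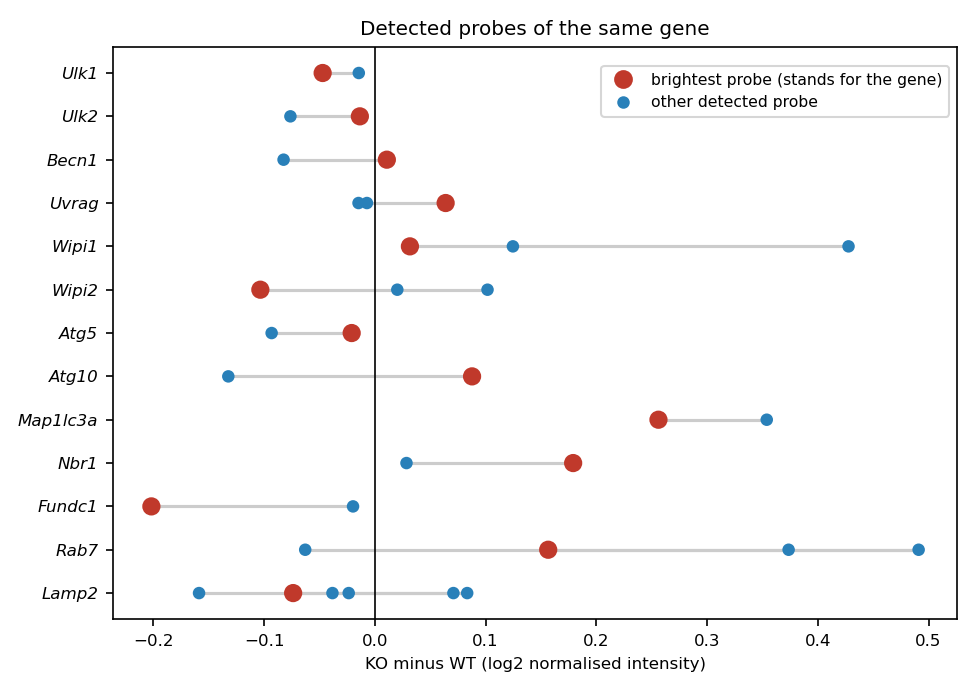
KO minus WT in log2 normalised intensity (x axis) for each detected probe of the 13 genes with more than 1 (y axis). Red points are the brightest probes, which stand for their genes, and blue points the others. Both Map1lc3a probes lie above 0, those of Wipi1 run from 0.03 to 0.43 and those of Rab7 from -0.06 to 0.49.

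Genes of the same pathways outside the 38 were described from 5 lists. For comparison, 49.4% of all genes tested had a positive difference. Of 30 measured genes of other autophagy machinery, 0 passed limma's test across all genes, 14 had a positive difference and the median was -0.02. The 3 with the smallest p were Zfyve1, which marks sites of autophagosome formation, at -0.32, the adaptor Tollip at -0.16 and the receptor Calcoco1 at 0.19. Of 30 lysosomal hydrolases and activators, 0 passed and 23 had a negative difference (median -0.09, and -0.08 without WT 3). The beta-mannosidase Manba had 8.53, 8.40 and 8.67 in KO and 7.95, 8.19 and 8.39 in WT (difference 0.36), opposite in sign to the acid lipase Lipa at -0.28 and the alpha-mannosidase Man2b1 at -0.25. KO and WT values of these last 3 genes did not overlap. Among the 30 hydrolases and activators, KO lay above WT for 1 and below WT for 6. Of all genes, 6.93% lay above and 6.42% below.

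Of 26 measured genes of the lysosomal membrane, of sorting and of the tethering complexes, 0 passed and 18 had a negative difference (median -0.06, and -0.0014 without WT 3). Sort1, a sorting receptor that carries enzymes to the lysosome and also serves insulin-responsive vesicles in muscle and fat, had 11.07, 11.20 and 11.04 in KO 1 to 3, against 11.44, 11.34 and 11.49 in WT 1 to 3. The groups were well apart (difference -0.32, SE 0.10, limma adjusted p = 0.522). Gnptab, which makes the mannose phosphate tag read by such receptors, had -0.34, and the endosomal GTPase Rab9 had -0.16. Of the 15 measured subunits and accessory proteins of the vacuolar ATPase, the pump that acidifies the lysosome, 0 passed and 13 had a positive difference (median 0.07). The 3 with the smallest p were Atp6v1c1 at 0.30, with 8.75, 8.55 and 8.85 in KO and 8.32, 8.39 and 8.54 in WT, Atp6v1g1 at 0.14 and Atp6v0e2 at 0.13, or 0.0024 without WT 3.

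Of 25 measured genes of the mTORC1, AMPK, FoxO and Tfeb-family axes, 0 passed and 16 had a positive difference (median 0.04). Sesn1, a stress-induced inhibitor of mTORC1, had 12.06, 12.37 and 12.12 in KO 1 to 3, against 11.67, 11.85 and 11.46 in WT 1 to 3. Every KO value lay above every WT value (difference 0.52, SE 0.14, limma adjusted p = 0.382), and the difference was 0.42 without WT 3. Trp53inp1, which binds Atg8 proteins and promotes autophagy, had 8.60, 8.60 and 8.59 in KO 1 to 3, against 8.17, 8.33 and 7.97 in WT 1 to 3. The KO arrays were nearly alike and all above WT (difference 0.44, SE 0.11, limma adjusted p = 0.381). Foxo3, a transcription factor that induces autophagy genes in wasting muscle, had 5.03, 5.36 and 5.38 in KO and 4.62, 4.99 and 5.01 in WT (difference 0.38, limma adjusted p = 0.628), close to background and detected on 2 of 3 WT arrays.

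**Figure D5:**
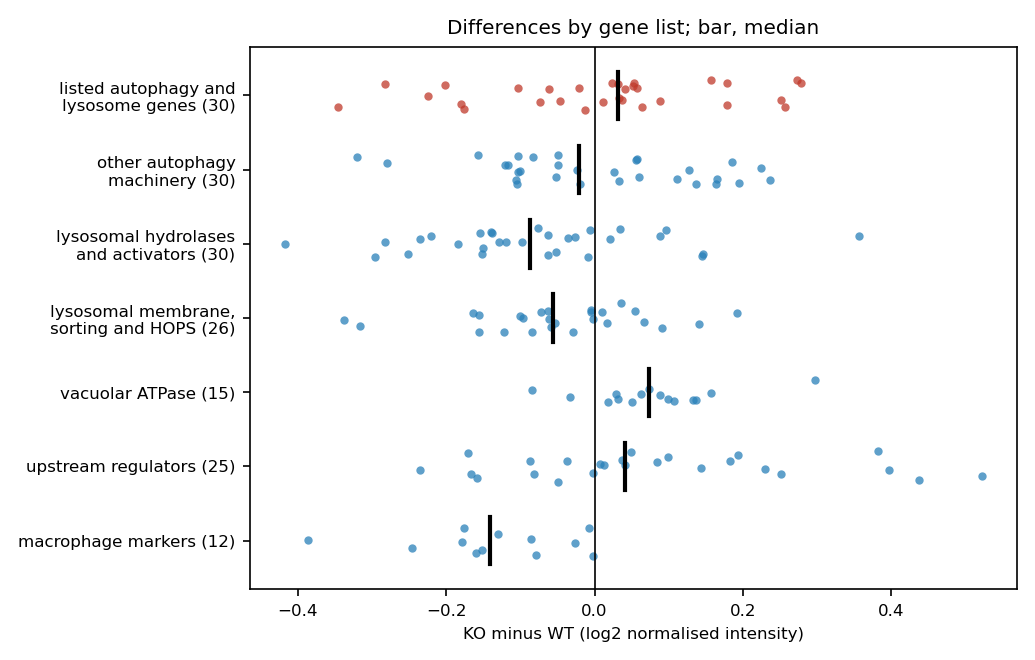
KO minus WT in log2 normalised intensity (x axis) for every tested gene of the 38 autophagy and lysosome genes, of 5 further pathway lists and of the macrophage markers (y axis, number of genes in brackets). Points are genes and black bars list medians, which run from -0.14 for the macrophage markers to 0.07 for the vacuolar ATPase.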

How the data were processed

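RNA from 6 newborn quadriceps muscles was measured on Illumina bead arrays, 1 per mouse. Trizol extraction and Cy3 labelling of cRNA (Ambion MessageAmp) are given per the labels. No scanner software is named there. The authors deposited, per the file headers, a mean bead intensity, its standard error, a number of beads and a detection p-value per probe and array. Between 25 and 63 beads stood behind each value of the 30 tested autophagy and lysosome genes, read from their brightest probes. A second deposited table holds quantile-normalised intensity, as read from its values.

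The bead intensity was normalised with neqc of limma 3.58.1 in R 4.3.3: normexp background correction with controls inferred from the detection p-value, an offset of 16, quantile normalisation and log2. Probes detected at p under 0.05 on at least 3 arrays were kept (19099). The brightest probe stood for its gene, which gave 13455 genes, 2962 of them probes with no symbol. KO was compared with WT by lmFit and eBayes (two-sided, Benjamini-Hochberg over all genes, threshold 0.05). Probe symbols came from the platform annotation. The step was tested on simulated data with independent noise and planted changes larger than any difference of the autophagy and lysosome genes. That test does not bear on differences of their size.

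The design states that littermates were killed together. Replicate numbers were taken to mark them, since same-numbered arrays had deviations from their group means that correlated at 0.34, 0.22 and 0.46. KO 1 also correlated with WT 2, at 0.24. The deviations within a group sum to 0, so correlations of both signs were bound to appear and are weak support. The numbers are therefore not proven litters. The members and lists were chosen with earlier results of these data known, so no test was run over a list. All 38 genes are named. Array values are given for the 12 with the smallest p and for Ulk1, Becn1, Map1lc3b, Sqstm1, Bnip3, Lamp1, Lamp2, Ctsl and Tfeb whatever their p, and for a few others chosen after their values were seen. Of each further pathway list the 3 genes with the smallest p are named. The number of arrays limits the precision.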

Additional observations from a re-analysis of the deposited data

How the results depend on the processing

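Under all 13 alternatives limma called 0 of the autophagy and lysosome genes at an adjusted p under 0.05, and the smallest adjusted p of any of them was 0.301. Of the 30, 13 kept the sign of their difference under every alternative and 17 changed it under at least 1. Over all genes limma called 15 higher and 5 lower in KO. With the same-numbered pairs as a block it called 18 and 8, and without background correction 23 higher and 8 lower. The same numbers came from the authors' deposited values, which were nearly the same as those without background correction. With no filter on detection it called 0 and 1 of 29453 genes, of which 6.60% had an unadjusted p under 0.05. Without 1 array in turn it called 0 to 15 higher and 1 to 9 lower (0 higher without KO 1 or WT 1, 1 without KO 2, 3 without KO 3, 6 without WT 2, and 9 lower without WT 3), with 4.85% to 8.91% at an unadjusted p under 0.05. The median difference of the 30 genes was 0.032, -0.0091 with median centring (where all genes had -0.033) and -0.0074 to 0.043 without 1 array in turn, so its sign was not settled. At an unadjusted p under 0.05, 2 of the 30 genes became 5 with the block, 6 without background correction or on the authors' deposited table, and 0 without KO 1. The block by replicate number changed no call among them at the adjusted threshold. The causes were not tested. Probes near background limit what can be said of Atg7, Ctsd and Mcoln1.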
